A study of Arabidopsis thaliana with 3 samples.

Results

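The 84 higher-ratio probes are the spots whose deposited log2 ratio was 1 or higher, that is at least 2-fold, on each of 3 cDNA arrays that compared apetala1 and wild-type inflorescences of Arabidopsis thaliana. They were 84 of 9413 probes, and 0.892% of the table met this rule. The rule used the ratios of all 3 arrays, so the ratios below describe the members and no test was made of them. Total RNA of apetala1 inflorescences was in channel 2 and total RNA of wild-type inflorescences in channel 1 of every array. The labels put array 1 in set 1 and arrays 2 and 3 together in set 2. The apetala1 allele, the strain, the age of the plants, any pooling and the dyes are not stated in the labels. The channel order makes it likely that a positive ratio means more transcript in apetala1, but the labels do not settle the direction. Nothing says that the 3 arrays carried RNA from separate plants, so the spread between them may be technical.

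APETALA1 encodes a MADS-domain transcription factor that gives floral meristems their identity and acts in sepals and petals. In plants without its function, leaf-like organs stand in place of sepals, petals are few or absent, and secondary flowers arise in the axils of the outer organs. Expression differences in such inflorescences can come from a changed level per cell or from a changed number of cells of a type, and ratios of whole inflorescences cannot tell these apart. On a cDNA array each spot carries the insert of 1 clone, and several clones can represent the same transcript. The files identify clones by plate and well and do not pair them with genes, so 84 is a number of probes and not of genes. Which members share a transcript was not tested, and no role or sequence can be given for them.

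Most members had similar ratios. A single cloud in the space of the 3 ratios held 80 of the 84 members, or 95.2%, where each probe was joined to the next by a step of at most 0.3 on every array. Such joining also held 100 of the 109 probes with a mean of at least 1 and all ratios positive, which include the 84. A high share is therefore not particular to the members. Over the 80 probes of the cloud the log2 ratio averaged 1.27 on array 1, 1.82 on array 2 and 1.57 on array 3. These means are 2.41-fold, 3.52-fold and 2.97-fold differences between the channels. On array 1 the SD over the 80 probes was 0.10, on array 2 it was 0.20 and on array 3 it was 0.15. The threshold and the joining of near probes both narrow this spread, so it is a description of the cloud. A stricter grouping, by a distance of at most 0.3 from 1 probe on every array, held 71 members, or 84.5%. The other 9 probes of the cloud averaged 1.26, 1.55 and 1.57 on arrays 1, 2 and 3. They were mixed, with ratios on array 2 from 1.16 to 2.13, the lowest and the highest of the cloud there.

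**Figure D1:**
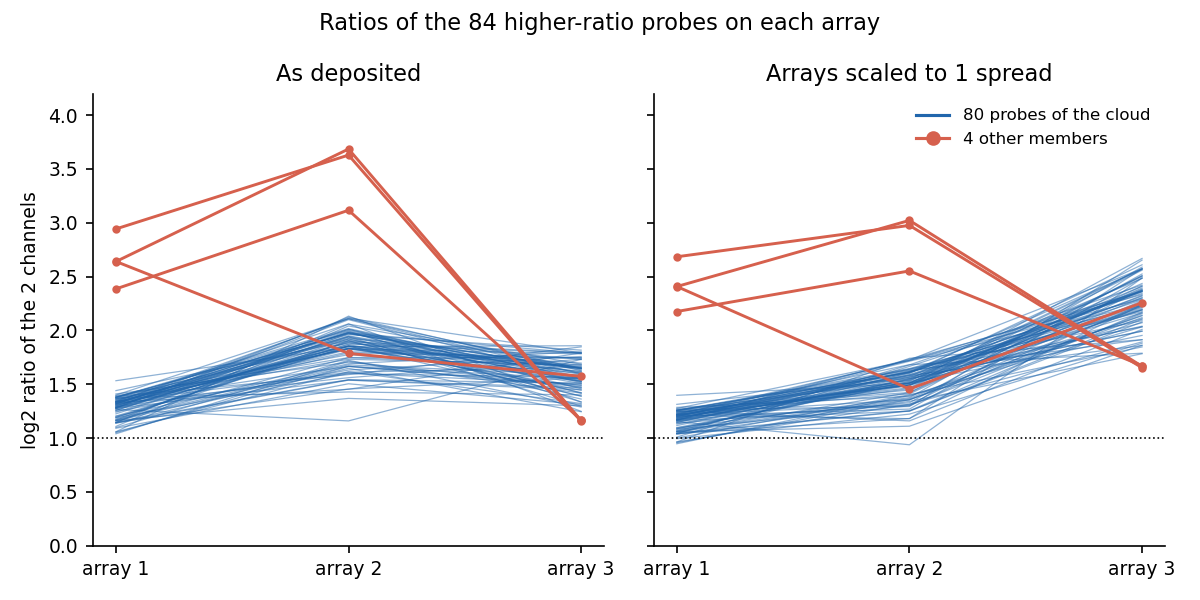
Log2 ratio (vertical axis) of each of the 84 members on arrays 1, 2 and 3, as deposited (left) and after all arrays were centred and scaled to 1 median absolute deviation (right). Each line is 1 probe, blue for the 80 probes of the cloud and red for the 4 other members, and the dotted line marks a ratio of 1. As deposited, 71 of the blue lines are highest on array 2 and 9 on array 3, and after scaling the blue lines peak on array 3.

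Over all 84 members the log2 ratio ran from 1.04 to 2.94 on array 1 with a median of 1.30. On array 2 it ran from 1.16 to 3.68 with a median of 1.85, and on array 3 from 1.15 to 1.86 with a median of 1.56. The same threshold of 1 is a rarer ratio on array 3, the array with the narrowest ratios, which sets in part where the members stand among all probes. Their median lay 4.07 SD of all probes above the mean of array 3, 3.28 SD above that of array 2 and 2.49 SD above that of array 1. A ratio of 1 or higher was read for 117 probes, or 1.24% of the table, on array 3, and 71.8% of them were members. On array 2 it was read for 212 probes, or 2.25%, of which 39.6% were members, and on array 1 for 233, or 2.48%, of which 36.1% were members. These shares follow from 1 fixed threshold on arrays of unequal spread.

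Most members had the same order of the arrays. In 68 of the 84 members, all of them in the cloud, the ratio was lowest on array 1, higher on array 3 and highest on array 2. Over all 9413 probes, 1649, or 17.5%, had this order. Among the 530 probes that were not members but were positive on all arrays with a mean of at least 0.5, 21, or 3.96%, had it. Among the 25 of them with a mean of at least 1, closer in size to the members, 3, or 12%, had it. The median difference of array 3 minus array 1 was 0.29 over the members, -0.50 over the 25 and -0.43 over the 530. Members had to reach 1 on array 3 as well, so probes low on that array are kept out of them by the rule, and these contrasts support nothing beyond it. The order of arrays 2 and 3 depends on the scaling of the arrays. As deposited the highest ratio was on array 2 for 74 members and on array 3 for 9, and after scaling to 1 spread it was on array 2 for 3 and on array 3 for 80. The scaled medians of the 84 were 1.18, 1.51 and 2.24 on arrays 1, 2 and 3, so the median was lowest on array 1 on both scales. Array 1 is also the only array of set 1, so array and set cannot be told apart here.

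Few probes lay just below the threshold. Between a lowest ratio of 0.5 and 0.8 there were 131 probes, between 0.8 and 1 only 7, and between 1 and 1.4 there were 81. The negative side also dipped, with 89, 11 and 37 probes in the same steps of the lowest absolute ratio. Around the centre of the 71 most alike probes, at 1.30, 1.87 and 1.59 on arrays 1, 2 and 3, 68 members lay within 0.3 on every array, a distance that itself nearly ensures the threshold. Within 0.6, which reaches below the threshold on array 1, there were 79 members and 3 other probes. The median distance of a member to the nearest probe of the whole table was 0.056, taken on the array where the pair differed most.

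**Figure D2:**
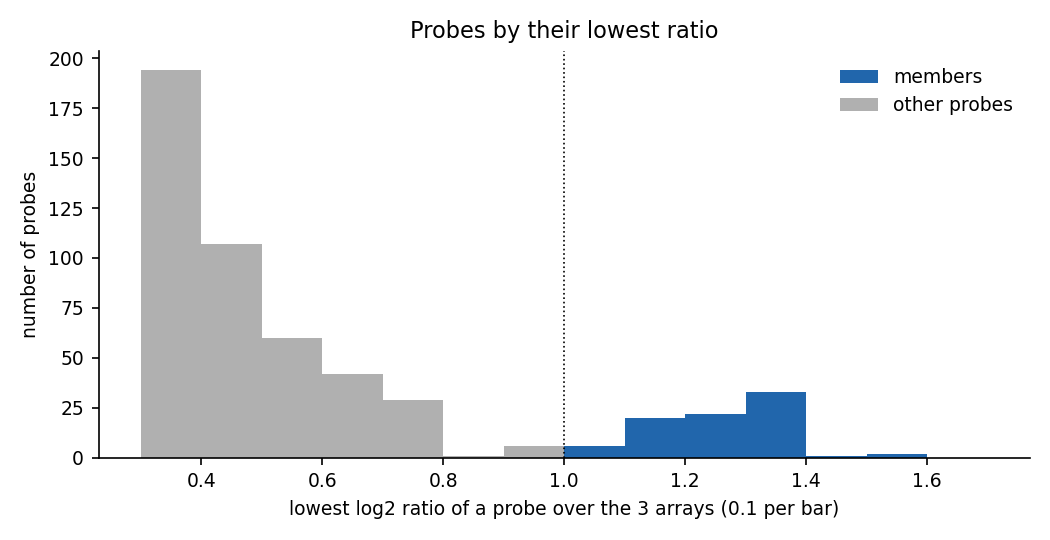
Number of probes (vertical axis) by the lowest of their 3 log2 ratios (horizontal axis, in steps of 0.1, from 0.3 upwards), blue for members and grey for other probes. The dotted line marks the threshold of 1. The counts fall to 1 probe between 0.8 and 0.9 and rise again to 33 between 1.3 and 1.4.

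At the edge of the rule, the member with the smallest lowest ratio read 1.04, 1.71 and 1.42 on arrays 1, 2 and 3. The next 2 members read 1.05, 1.67 and 1.48, and 1.06, 1.62 and 1.32. All 3 belonged to the cloud. Just outside the rule, 1 probe read 2.84, 3.81 and 0.995, another 0.989, 2.09 and 1.42, and 1 more 0.973, 2.03 and 1.72. The last 2 of these lay 0.31 and 0.32 from the centre of the 71 most alike probes, so the threshold left out few probes of like ratios.

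The 4 members outside the cloud had higher ratios on array 1. Probe GP145F8 (plate 145, well F8) had the highest lowest ratio of all members. It read 2.64, 1.79 and 1.57 on arrays 1, 2 and 3, a mean of 2.0 ± 0.56 (SD, n = 3) or 4.0-fold. It was the single member with its highest ratio on array 1, while on arrays 2 and 3 it lay within the range of the cloud. The other 3 members outside the cloud shared a different profile, with high ratios on arrays 1 and 2 and low ones on array 3. They read 2.94, 3.63 and 1.15, then 2.64, 3.68 and 1.16, and then 2.39, 3.12 and 1.17. The 3 probes differed from each other by up to 0.56 on array 1 and 0.57 on array 2, but all were below every probe of the cloud on array 3. Their means over the arrays were 2.57 ± 1.28, 2.50 ± 1.27 and 2.22 ± 0.98 (SD, n = 3 each), so their SD over arrays was far above that of GP145F8. The first of them had the highest ratio of all 9413 probes on array 1. The probe just outside the rule at 2.84, 3.81 and 0.995 had the same pattern.

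**Figure D3:**
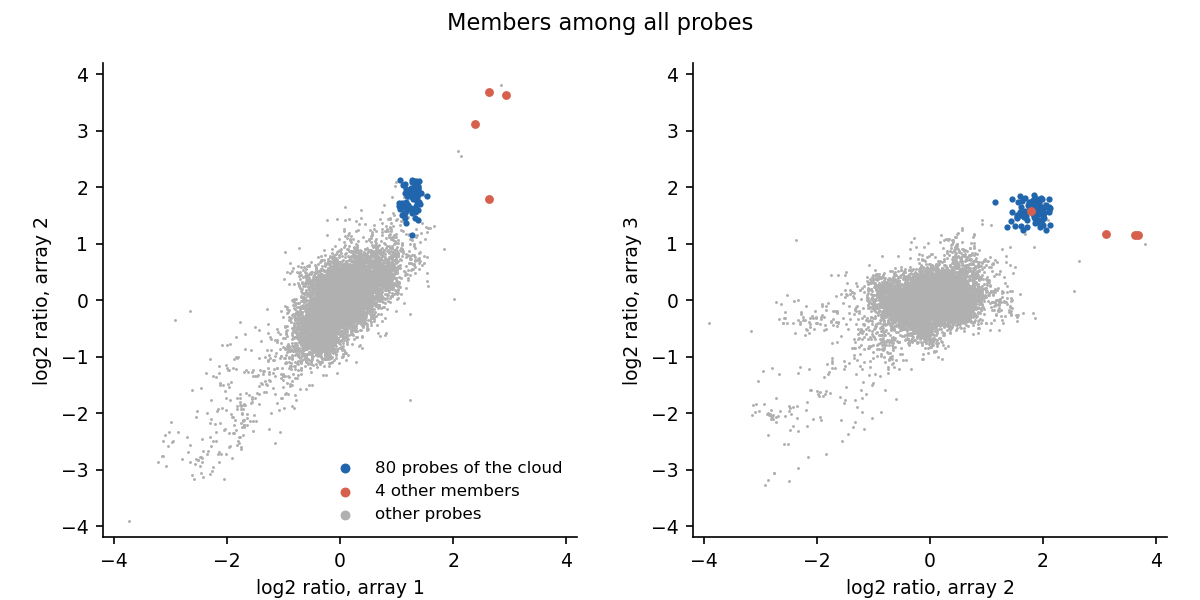
Log2 ratio of every probe on array 2 against array 1 (left) and on array 3 against array 2 (right), 1 point per probe, blue for the 80 probes of the cloud, red for the 4 other members and grey for the rest. All members are at 1.15 or higher on array 3, and a few grey points that miss the threshold on array 1 fall among the cloud in the right panel.

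Within the cloud, probe GP108F12 (plate 108, well F12) had the highest lowest ratio, and the second highest of all members. It read 1.53, 1.85 and 1.86 on arrays 1, 2 and 3, with a mean of 1.75 ± 0.19 (SD, n = 3) or 3.35-fold. Its ratio on array 3 was the highest of the whole table there, and its ratio on array 1 the highest of the cloud. Across the 80 probes of the cloud, arrays 1 and 2 correlated with a Pearson r of 0.23, arrays 1 and 3 with 0.38 and arrays 2 and 3 with 0.05. The threshold and the joining of near probes narrow the ranges, so low values here are in part set by the choice. Across all 9413 probes r was 0.74, 0.64 and 0.50 for these pairs. Over all 84 members r was 0.73, -0.26 and -0.36 for these pairs, and the 4 members outside the cloud made the difference. These values are across probes, which share the arrays and are no independent replicates.

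Probes were also chosen on 2 arrays and read on the remaining one. Of the 88 probes at 1 or higher on arrays 2 and 3, 84, or 95.5%, were at 1 or higher on array 1, and the lowest read 0.52 there. Of the 95 probes chosen on arrays 1 and 3, 84, or 88.4%, were at 1 or higher on array 2. Of the 121 chosen on arrays 1 and 2, 84, or 69.4%, were at 1 or higher on array 3, and 10 were not positive there. Among the probes not chosen, 1.6%, 1.37% and 0.355% were at 1 or higher on arrays 1, 2 and 3. The 84 are the members in each case, by definition. The shares thus restate the rule against the counts from 2 arrays and are no evidence of replication. The 37 probes chosen on arrays 1 and 2 that were no members had a median of 0.30 on array 3. They had medians of 1.27 on array 1 and 1.28 on array 2, so on array 1 they were close to the cloud and on array 2 below it. Their low ratio on array 3 is what kept them from being members.

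The members were spread over many source plates. They came from 55 of the 114 plates in the table, with at most 3 on a plate, and 33 plates held a single member. Of 36 pairs of members on the same plate, 1 pair lay in wells side by side. These counts of plates and pairs have no counterpart for other sets of probes, so they only describe the members. On plates 120 to 147 there were 2 members among 2259 probes, or 0.0885%, and 1 of them belonged to the cloud. On plates 41 to 45 there were 9 among 398, or 2.26%, and on plates 100 to 119 there were 25 among 1702, or 1.47%. Plates 55 to 79 held 27 among 2219, or 1.22%, plates 80 to 99 held 16 among 1758, or 0.91%, and plates 0 to 35 held 5 among 1077, or 0.464%. The share was thus lowest on the last plates of the set, where a single probe of the cloud was found. These plate ranges were set after the values were seen. By row of the plate, row F held 21 members, or 25% of them, against 13% of all probes, and the other 7 rows held 5 to 12 each. By column, column 8 held the most, 12 members or 14.3% of them, against 8.33% of all probes. Row F and column 8 are named because their counts were the highest.

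**Figure D4:**
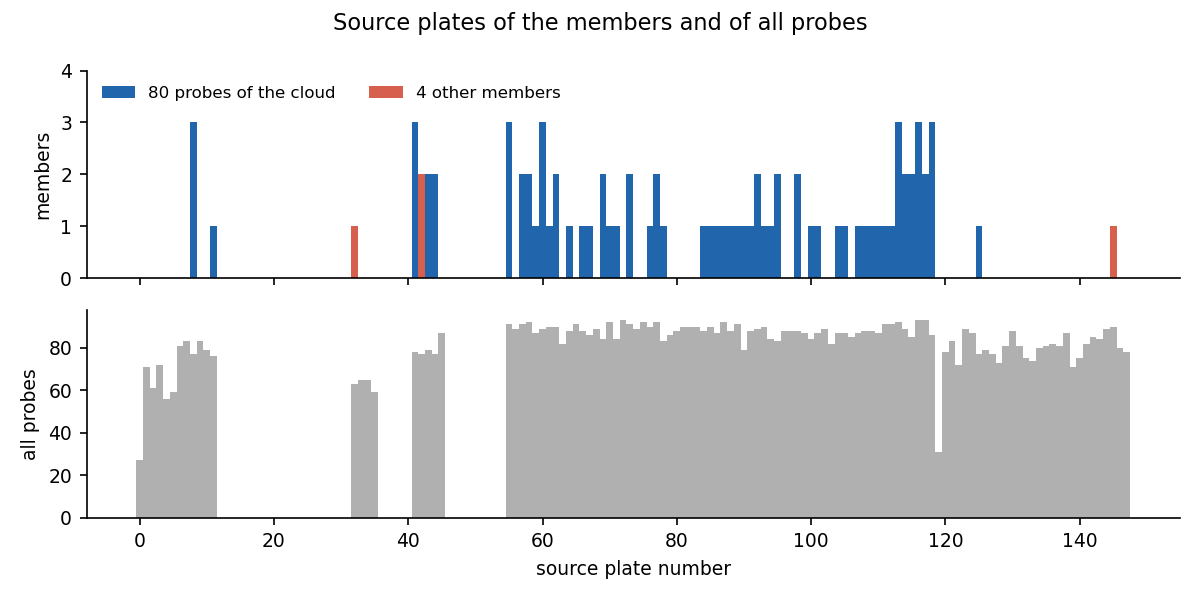
Number of members (top, blue for the 80 probes of the cloud and red for the 4 others) and of all probes (bottom) by source plate number. No plate holds more than 3 members, and plates 120 to 147 together hold 2.

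The probes at -1 or lower on all 3 arrays, likely higher in wild type, were 104, or 1.1% of the table. By fixed log2 distances they were less alike among themselves. Their largest group within 0.3 of 1 probe held 19, or 18.3%, against 71 of the 84 higher-ratio probes. By grouping with all pairs within 0.6 on each array they formed 20 profiles, against 6 for the higher-ratio probes. A cloud joined by steps is not given for the lower-ratio probes. A nearest probe within 0.2 on every array was found for 89 of the 104 and for 80 of the 84. Over the 84 higher-ratio probes the SD on the 3 arrays was 0.32, 0.37 and 0.17, and over the 104 it was 0.50, 0.63 and 0.52. At 1.5 or more on every array there were 2 higher-ratio probes, against 63 on the negative side. The lower-ratio probes also had larger ratios in size, with medians of -2.17, -2.13 and -1.87 on arrays 1, 2 and 3. The medians of the higher-ratio probes were 1.30, 1.85 and 1.56. The fixed distances and the SD make no allowance for this size, so the counts of groups and profiles may in part reflect it. These differences between the groups were counted and not tested.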

How the data were processed

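Each of 3 arrays gave 1 log2 ratio per probe. The deposited log2 ratios were preprocessed and normalized by the authors with a published procedure, per the labels. The labels name no scanner, background correction, filter, dye or direction. The base was read from the values: turned into natural logs, 98.7%, 98.4% and 98.6% of them fell on steps of 0.0001, with a tolerance of 0.02 steps. Column medians were 0.0023, 0.023 and 0.0091. None of the 9413 probes had a missing value, and 0 value columns were left unmapped. Signal intensities were not used here, so ratios from weak spots were not set apart. The number of arrays limits the precision.

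Ratios were used as deposited, with Python 3.11.15, pandas 2.3.3 and scipy 1.17.1. Groups were made by distance from 1 probe, by complete linkage at 0.6 and by single linkage at 0.3, always on the array with the largest difference. The first 2 groupings were run on simulated data with planted groups. Those groups were tighter than the cloud, so that run does not check the counts of groups given here. Members, lists and groups were chosen with earlier results of these data known, and the single linkage and the order of arrays after seeing the values. The rule named the 2 members with the highest lowest ratio. The gene lists, counts of loci, tissue markers and the value of AP1 were not analysed here, since the reference table could not be joined to plate and well identifiers. Alternatives covered the threshold, centring, scaling, well position, distances and arrays left out.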

Additional observations from a re-analysis of the deposited data

How the results depend on the processing

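The number of members was 84. It was 81 after scaling (77 shared with the 84), 84 after median centring and 87 after centring by well position. Of the 81 after scaling, the largest group held 62 and the cloud 73. Averaging arrays 2 and 3 gave 93, and a mean of at least 1 with all ratios positive gave 109. Leaving out 1 array gave 88 to 121 members, 74 to 80 in the largest group (71 with all arrays), 5 to 7 profiles (6 with all arrays) and 85 to 114 in the cloud (80 with all arrays). A threshold of 1.5 left 2 members, 1 in the largest group, 1 in the cloud and 0 with the order array 1, array 3, array 2, and its profiles were not counted. Profiles rose to 10 at a threshold of 0.8 and to 14 with the rule on the mean, since both add probes. For the 84 members there were 9 profiles at a distance of 0.4 and 4 at 0.8, in place of 0.6. Within a distance of 0.2 in place of 0.3 the largest group held 45, by construction, and the cloud 79. After scaling, 1 of the 81 probes had the order array 1, array 3, array 2, against 68 of the 84 as deposited, because scaling widens array 3 and narrows array 2. The means of GP145F8 and GP108F12 moved by less than their SD over arrays under all 7 alternatives run for each. Every ratio already pairs apetala1 with wild type on 1 array, so no further pairing was made. Gene lists and counts of loci were not run.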

Other observations

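Within the cloud the ratios of arrays 2 and 3 moved with well position, as in the rest of the table, and those of array 1 little. Wells fell into 16 classes, given by row and by column, with a repeat of 4 in each direction. Among probes that were not members, the class medians of array 3 minus array 2 ran from -0.29 to 0.23. Across the 80 probes of the cloud, this difference correlated with the median of the probe's class at r = 0.56, a description over probes that share arrays and classes. Subtracting the class medians of the other probes lowered the SD of the difference over the cloud to 0.20, against 0.25 as deposited. On single arrays the ratios of the cloud correlated with the class median at r = 0.12 on array 1, 0.35 on array 2 and 0.41 on array 3. The SD on array 1 was 0.10 after and before, on array 2 it was 0.19 after and 0.20 before, and on array 3 it was 0.14 after and 0.15 before. Over the cloud Pearson's r was 0.24 after this step and 0.05 before it for arrays 2 and 3, 0.31 after and 0.23 before for arrays 1 and 2, and 0.32 after and 0.38 before for arrays 1 and 3. What the clones in these wells have in common was not tested.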
